A study of Homo sapiens with 6 samples.

Results

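GULP1 and 9 receptors and adaptors of the machinery by which cells take up dying cells were examined in the RNAseq data of C4-2B, a castration resistant prostate cancer cell line, and of RC4-2B, its cabazitaxel (CBZ) resistant subclone. The members were the rows of the deposited tables named GULP1, LRP1, MEGF10, MEGF11, STAB1, ELMO1, ELMO2, DOCK1, AXL and MERTK, which are 10 of 58735 genes, and each name matched 1 row. GULP1 was selected on its read counts, because they are lower in RC4-2B than in C4-2B in this same comparison, so its change is described here without a test. The other 9 were read with it for their place in the pathway. RC4-2B cells came from C4-2B cells through repeated 72 h exposures to CBZ, a taxane, from 0.1 nM up to 20 nM over 4 months. Both cell lines were sequenced as 3 biological replicates without a drug named for the RNA culture, and RC4-2B stands for the product of 1 selection.

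Engulfment of a dying cell starts when phosphatidylserine, a lipid normally kept on the inner side of the plasma membrane, becomes exposed. Receptors bind it directly or through secreted bridging proteins. Adaptors then pass the signal to RAC1, a small GTPase that drives actin around the particle. GULP1 is an adaptor with a phosphotyrosine-binding domain, the counterpart of the worm protein CED-6, and is known to bind the cytoplasmic tails of LRP1, STAB1 and MEGF10. ELMO proteins and DOCK1 form the exchange factor that loads RAC1 with GTP. These proteins are best known from phagocytes, and epithelial cells also carry many of them.

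The 6 libraries held 15707134 to 18052517 counts on genes, so that 3 counts, taken as the floor of detection, equal 0.170 to 0.188 CPM (the share of a gene in the TMM-scaled total of its library), a limit that covers counting error alone. RC4-2B replicate 2 stood apart. Its deviation from the mean level of a gene correlated with the GC content of the transcript at a Spearman rho of -0.66 across genes. The rho was 0.46, 0.38 and 0.38 in C4-2B replicates 1 to 3. In RC4-2B replicates 1 and 3 it was 0.36 and -0.068, so the GC trend also differed in part between the cell lines. Counts on genes were 96.3% of the FPKM total of RC4-2B replicate 2, against 87.9% to 90.8% in the other 5 libraries. All 8 luminal prostate markers examined had enough counts to be tested, and their summed level was 3397 to 3506 CPM in C4-2B and 2305 to 2774 CPM in RC4-2B. Of the 8, KLK3, which encodes prostate-specific antigen, and TMPRSS2, a membrane serine protease gene, were lower in RC4-2B by edgeR's quasi-likelihood test (log2 fold changes of -4.33 with adjusted p = 0.00015 and -1.08 with adjusted p = 0.019). The other 6, the keratins KRT8 and KRT18 among them, did not pass. The part of these marker levels in the other results was not tested. The macrophage markers, summed over 7 genes with PTPRC, CD14 and CSF1R among them, reached 0.398 to 0.736 CPM in C4-2B and 0.411 to 0.813 CPM in RC4-2B, and none of the 7 had enough counts to be tested. Of 5 endothelial markers, PECAM1 was at 0 in all libraries and VWF alone was tested, with summed levels of 7.47 to 8.14 CPM in C4-2B and 3.76 to 5.25 CPM in RC4-2B. Of 5 fibroblast markers, DCN, LUM and COL1A2 were at 0 throughout, and the summed level, carried by COL1A1 and PDGFRB, was 24.0 to 27.3 CPM in C4-2B and 24.9 to 39.8 CPM in RC4-2B.

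GULP1 (ENSG00000144366) lies on the plus strand of chromosome 2, at chr2:188291669-188595931 in GRCh38. C4-2B replicates 1 to 3 held 2854, 3195 and 2918 GULP1 reads, and RC4-2B replicates 1 to 3 held 503, 667 and 583. The groups lay far apart, and within each cell line the libraries lay close together. Groups without overlap were seen for 34.1% of all tested genes. After scaling, GULP1 stood at 172 ± 7.63 CPM (SD, n = 3) in C4-2B and at 34.6 ± 3.30 CPM (SD, n = 3) in RC4-2B, a level 4.99-fold lower. The log2 fold change was -2.32 with a standard error of 0.12, and it stayed between -2.39 and -2.25 when each library was left out in turn. GULP1 RNA was still well detected in RC4-2B, since 503 counts is far above the floor. In bulk RNA, fewer cells that express a gene and less RNA per cell cannot be told apart. The longest GULP1 transcript has a GC content of 30.2%, and with a correction for GC content the log2 fold change was -2.47. LINC01090, a long noncoding RNA gene that overlaps 92645 bases of GULP1 on the opposite strand, had 6, 7 and 5 counts in C4-2B and 1, 2 and 3 counts in RC4-2B. These few reads cannot be told apart from GULP1 reads, because the strand setting of the counting is not given in the sources used here.

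**Figure D1:**
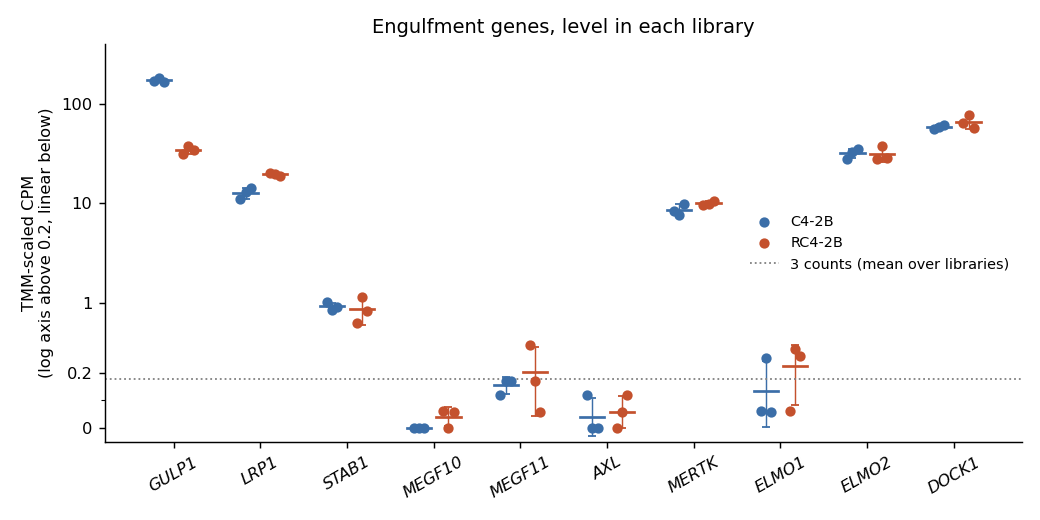
TMM-scaled CPM (vertical axis, logarithmic above 0.2 and linear below) of the 10 members in each of 3 C4-2B (blue) and 3 RC4-2B (red) libraries, with the mean (line) and SD (bar) of each group and the mean level of 3 counts (dotted). GULP1 drops from 172 to 34.6 CPM, and LRP1 is the other member whose groups do not overlap, as do those of 34.1% of all tested genes. MEGF10, MEGF11, AXL and ELMO1 lie near the dotted line.

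The deposited FPKM values divide counts by 1 length per gene, and levels of different members are compared on that scale. The length of the transcripts expressed here was not measured, so ranks and ratios between genes depend on the length used. In C4-2B, GULP1 was the highest of the 10, at 12.9 ± 0.499 FPKM (SD, n = 3), above DOCK1 (6.47 ± 0.328 FPKM), ELMO2 (4.36 ± 0.483 FPKM), MERTK (1.65 ± 0.230 FPKM) and LRP1 (0.550 ± 0.0723 FPKM). In RC4-2B, GULP1 took the third place at 2.63 ± 0.314 FPKM, below DOCK1 (7.43 ± 1.30 FPKM) and ELMO2 (4.36 ± 0.858 FPKM) and still above MERTK (1.95 ± 0.101 FPKM) and LRP1 (0.859 ± 0.0365 FPKM). STAB1 followed at 0.0783 ± 0.00713 FPKM in C4-2B and 0.0746 ± 0.0243 FPKM in RC4-2B. Down to STAB1, no member overlapped the next one in either cell line, and the order of MEGF11, ELMO1, AXL and MEGF10 below it was within their spread. Within a library, GULP1 exceeded its receptor LRP1 by a ratio of FPKM values of 26.7, 24.4 and 20.1 in C4-2B replicates 1 to 3 and of 2.72, 3.32 and 3.15 in RC4-2B replicates 1 to 3. The ratio to DOCK1 went from 2.00 ± 0.138 to 0.358 ± 0.0414 (SD, n = 3), so that DOCK1 was the lower of the pair in the parental cells and the higher in the resistant cells.

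The 250 bases before the RefSeq starts of GULP1, THBS1 and LRP1 are shown because these genes carry the differences described here: GULP1 and THBS1 were lower in RC4-2B, and LRP1 is the member whose call depends on the processing. Sequences are from RefSeq, build GRCh38.p14, and lie on the plus strand at chr2:188291624-188291873, chr15:39580829-39581078 and chr12:57128233-57128482. The RefSeq start of GULP1 is 205 bases downstream of the start in the deposited table. Thus 205 of its 250 bases lie inside the gene as deposited, whereas the starts differ by 0 bases for THBS1 and 10 for LRP1. Capitals mark matches, on either strand, to the GC box GGGCGG, the CCAAT box, the TATA box TATAAA or the AP-1 site TGACTCA.
GULP1: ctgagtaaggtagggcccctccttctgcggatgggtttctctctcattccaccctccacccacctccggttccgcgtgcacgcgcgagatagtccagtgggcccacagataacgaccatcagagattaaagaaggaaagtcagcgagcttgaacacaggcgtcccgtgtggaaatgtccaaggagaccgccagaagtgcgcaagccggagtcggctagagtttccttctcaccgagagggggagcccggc
THBS1: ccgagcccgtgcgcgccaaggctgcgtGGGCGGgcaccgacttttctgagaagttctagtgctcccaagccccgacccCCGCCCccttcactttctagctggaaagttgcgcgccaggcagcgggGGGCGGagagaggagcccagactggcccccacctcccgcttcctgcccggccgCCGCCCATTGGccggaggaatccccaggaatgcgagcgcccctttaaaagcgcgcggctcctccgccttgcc
LRP1: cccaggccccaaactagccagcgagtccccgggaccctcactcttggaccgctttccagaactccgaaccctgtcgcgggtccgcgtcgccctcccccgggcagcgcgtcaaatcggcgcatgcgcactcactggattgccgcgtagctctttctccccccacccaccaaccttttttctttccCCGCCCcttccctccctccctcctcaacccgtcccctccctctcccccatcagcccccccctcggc
THBS1 held 4 matches to the GC box and 1 to the CCAAT box, of which the last GC box match and the CCAAT box match adjoin each other without shared bases. LRP1 held 1 GC box match, and GULP1 held none of the 4 motifs. Among the 35116 promoters of the table, the 250 bases held the GC box in 42.6%, the CCAAT box in 32.0%, the TATA box in 10.7% and the AP-1 site in 4.20%. The window before GULP1 contained 17 CpG dinucleotides, that before THBS1 24 and that before LRP1 20, against a median of 11 over all promoters. Methylation and factor binding were not measured here.

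Of the 9 members besides GULP1, 5 had enough counts to be tested, and none of them passed an adjusted p-value under 0.05 in edgeR's quasi-likelihood test. Over all 15054 genes tested, 1.98% passed in either direction. At an unadjusted p-value under 0.05 the number was 1 of 5 in edgeR, against 21.4% of all genes, and 1 also passed after adjustment in DESeq2, where 5.93% of all genes did. In each case this gene was LRP1. Split by direction, 1.08% of all genes were higher and 0.903% lower in edgeR, 3.28% and 2.64% in DESeq2, 4.38% and 3.29% (7.67% together) in edgeR with a correction for GC content, and 6.5% and 6.02% (12.5% together) in edgeR without RC4-2B replicate 2. The median log2 fold change of the 5 was 0.17, against 0.0063 over all genes tested.

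LRP1, a large endocytic receptor of the LDL receptor family that binds calreticulin on dying cells, lies at chr12:57128493-57213351 on the plus strand. It had 186, 228 and 252 counts in the parental libraries and 322, 349 and 322 counts in the resistant libraries. The highest C4-2B library (14.3 CPM) was below the lowest RC4-2B library (18.9 CPM). Such a gap was seen for 1 of the 5 tested members besides GULP1 and for 34.1% of all tested genes. The mean was 12.8 ± 1.63 CPM in the parental line and 19.6 ± 0.646 CPM in the subclone (SD, n = 3). The log2 fold change was 0.62 (standard error 0.15, 95% interval 0.28 to 0.96), and the adjusted p-value in edgeR's test was 0.074. The adjusted p-value was 0.022 in DESeq2, 0.0083 without RC4-2B replicate 2 and 0.016 with a correction for GC content, and over all 12 alternative fits it lay between 0.0083 and 0.34. The longest LRP1 transcript has a GC content of 60.1%, and the GC-corrected log2 fold change was 0.92.

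STAB1, a scavenger receptor for phosphatidylserine found on macrophages and sinusoidal endothelium, was barely detected. It had 17, 15 and 16 counts in C4-2B and 10, 20 and 14 counts in RC4-2B, and the groups overlapped. The log2 fold change was -0.092 with a 95% interval of -0.88 to 0.70, so changes within that interval are compatible with these counts. At such low counts larger changes can also miss the threshold. The STAB1 gene shares 111 bases with NT5DC2 on the opposite strand, which had 5162 to 6098 counts per library, and how reads of the shared stretch were assigned is not given in the sources used here. The receptors MEGF10 and MEGF11, counterparts of the worm receptor CED-1, were absent or at the floor. MEGF10 had no count in C4-2B and 1, 0 and 1 counts in RC4-2B. MEGF11 had 2, 3 and 3 counts in C4-2B and 6, 3 and 1 counts in RC4-2B. Neither was tested.

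**Figure D2:**
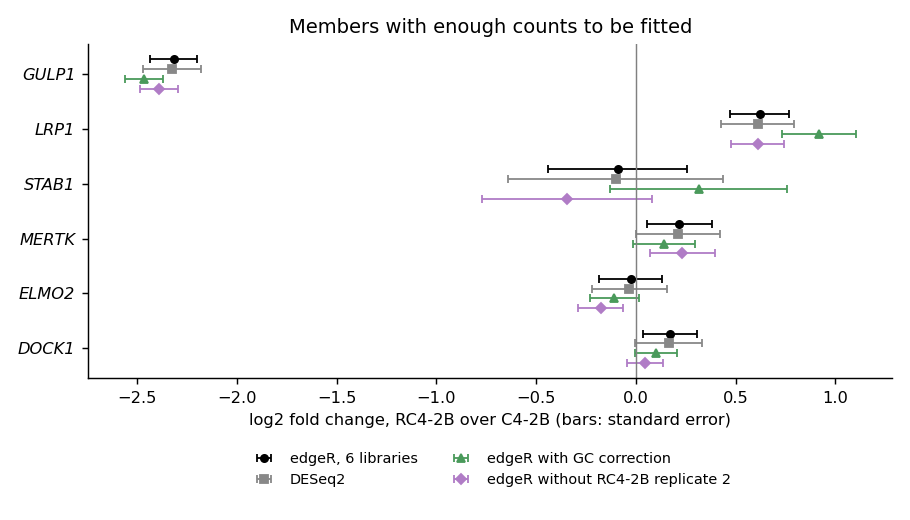
log2 fold change of RC4-2B over C4-2B (horizontal axis) with its standard error (bars) for the 6 members with enough counts, in edgeR on 6 libraries (circles), DESeq2 (squares), edgeR with a correction for GC content (triangles) and edgeR without RC4-2B replicate 2 (diamonds). GULP1 lies between -2.47 and -2.32 and LRP1 between 0.61 and 0.92, while the signs of STAB1 differ between fits.

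AXL and MERTK belong with TYRO3 to the TAM receptor tyrosine kinases, which recognise phosphatidylserine through the bridging ligands GAS6 and PROS1. AXL had 2, 0 and 0 counts in C4-2B and 0, 1 and 2 counts in RC4-2B, at or under the floor in every library. MERTK had 141, 135 and 174 counts in C4-2B and 155, 173 and 181 counts in RC4-2B, and its groups overlapped. The parental mean was 8.65 ± 1.15 CPM and the resistant mean 10.1 ± 0.501 CPM (SD, n = 3). The log2 fold change of 0.22 had a 95% interval of -0.16 to 0.59 and an adjusted p-value of 0.43 in edgeR's test. TYRO3 was the most abundant TAM receptor, at 4.36 ± 0.124 FPKM in C4-2B and 3.99 ± 0.461 FPKM in RC4-2B. It took 73.4%, 75.0% and 69.0% of the summed TAM FPKM in the parental libraries and 69.8%, 63.7% and 67.3% in the resistant libraries, and MERTK took nearly all of the rest. The MERTK share rested at 27.4% ± 3.13 in C4-2B and 32.9% ± 3.00 in RC4-2B (SD, n = 3), which overlapped (exact permutation test, two-sided, p = 0.2, where 0.1 is the smallest p that 3 libraries against 3 allow). AXL was at most 0.339% of the sum. GAS6, chosen for mention after its values were seen, had 290, 308 and 280 counts in C4-2B and 174, 125 and 224 counts in RC4-2B. The groups did not overlap, which held for 34.1% of all tested genes. The log2 fold change of GAS6 was -0.70 with an adjusted p-value of 0.14 in edgeR's test. It passed in 2 of 14 alternative fits, over which the adjusted p-value lay between 0.028 and 0.42. The value was 0.028 without RC4-2B replicate 2, where 12.5% of all genes passed, 0.040 without a filter on low counts, and 0.053 in DESeq2.

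ELMO1, ELMO2 and DOCK1 act between the receptors and RAC1. ELMO1, the form best known from blood cells, had 1, 5 and 1 counts in C4-2B and 1, 6 and 5 counts in RC4-2B, too few for a test. ELMO2 had 473, 585 and 613 counts in C4-2B and 448, 662 and 490 counts in RC4-2B, which overlapped, at 32.1 ± 3.46 and 31.5 ± 5.41 CPM (SD, n = 3). Its log2 fold change was -0.025 with a 95% interval of -0.39 to 0.34. DOCK1 had 938, 1041 and 1079 counts in C4-2B and 1024, 1355 and 976 counts in RC4-2B, with a log2 fold change of 0.17 and a 95% interval of -0.14 to 0.48. The adjusted p-values in edgeR's test were 0.93 for ELMO2 and 0.45 for DOCK1. A change of GULP1's size lies outside both intervals. ELMO3, a member of the same family expressed in epithelia, was the most abundant ELMO gene, at 24.3 ± 0.853 FPKM in C4-2B and 19.3 ± 5.97 FPKM in RC4-2B (SD, n = 3). ELMO2 made up 13.3% to 16.2% of the summed ELMO FPKM in the parental libraries and 13.8%, 29.9% and 15.5% in RC4-2B replicates 1 to 3 (exact permutation test, two-sided, p = 0.8). As a share of counts, ELMO2 took 31.4% ± 2.77 in C4-2B and 37.6% ± 12.6 in RC4-2B. In RC4-2B replicate 2 it took 52.0% of the counts, more than the 47.5% of ELMO3. RC4-2B replicate 2, the library with the most negative GC trend, set the higher mean of RC4-2B. Without this library the difference turned from 4.52 to -0.575 percentage points.

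**Figure D3:**
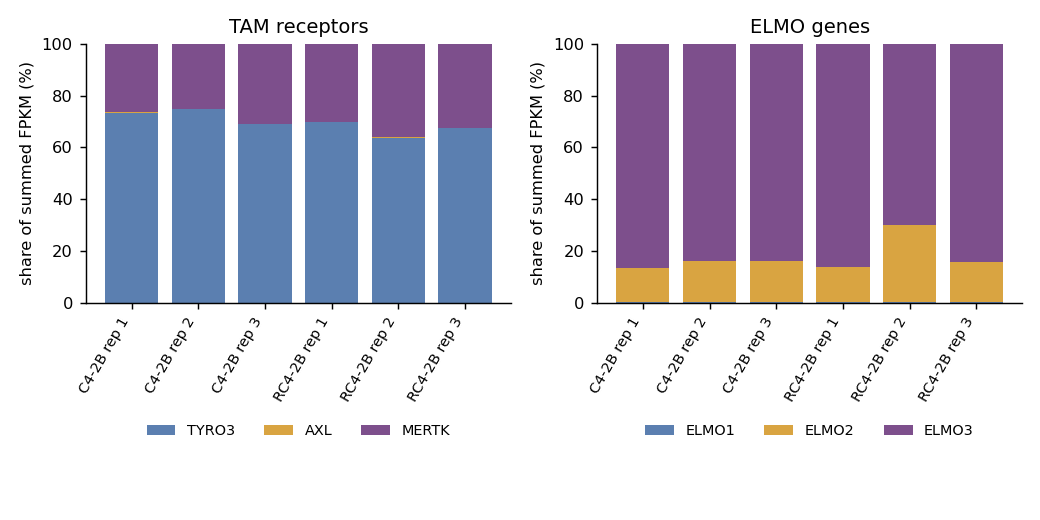
Share of the summed FPKM (vertical axis, %) taken by TYRO3, AXL and MERTK (left) and by ELMO1, ELMO2 and ELMO3 (right) in each of the 6 libraries. TYRO3 and ELMO3 lead in every library, AXL and ELMO1 are barely visible, and RC4-2B replicate 2 has the largest ELMO2 share, 29.9%.

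A further 67 genes of the pathway were read in 6 lists by role, and 52 of them had enough counts to be tested. In edgeR's test 1 gene, THBS1, was lower in RC4-2B and none was higher, against 0.903% lower and 1.08% higher among all genes tested. At an unadjusted p-value under 0.05 the numbers were 7 higher and 2 lower, together 17.3% of the 52 against 21.4% of all genes (12% higher and 9.42% lower), and DESeq2 called 1 higher and 1 lower, the latter again THBS1. The median log2 fold change of the 52 was 0.0094, close to that of all genes.

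THBS1 encodes thrombospondin, a secreted matrix protein that can bridge dying cells to CD36 and alpha v integrins and that LRP1 takes up. It had 954, 816 and 719 counts in the parental libraries and 252, 345 and 218 counts in the resistant libraries, without overlap. Among all tested genes, 34.1% were without overlap. The mean fell from 48.0 ± 8.15 to 16.1 ± 3.44 CPM (SD, n = 3), which is 2.99-fold lower, or -1.58 ± 0.19 (standard error) on the log2 scale, with an adjusted p-value of 0.0085 in edgeR's test. It passed the threshold in 13 of 14 alternative fits, and the exception was the fit without C4-2B replicate 1, with an adjusted p-value of 0.061. Of the 11 bridging ligands, 6 were tested. ANXA1, an intracellular protein exposed with phosphatidylserine, had 6, 6 and 5 counts in C4-2B and 14, 17 and 24 counts in RC4-2B. Its log2 fold change was 1.71 with an adjusted p-value of 0.065 in edgeR's test, and of 0.025 without RC4-2B replicate 2. ANXA1 passed in 2 of 12 alternative fits, over which the adjusted p-value lay between 0.025 and 0.28. CALR, which encodes calreticulin, was the most abundant of the list at 609 ± 15.6 FPKM in C4-2B and 702 ± 52.5 FPKM in RC4-2B, with a log2 fold change of 0.18. The complement genes C1QA, C1QB and C1QC and the integrin ligand EDIL3 were at 0 in all libraries.

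Of the 11 apoptotic cell receptors, 5 were tested and none passed in edgeR's test, in which 1.98% of all genes tested did. ITGB5, an integrin subunit that pairs with alpha v, led the list at 10.3 ± 0.331 FPKM in C4-2B and 12.3 ± 1.20 FPKM in RC4-2B (SD, n = 3), and its log2 fold change was 0.23. Its groups overlapped through RC4-2B replicate 2, and the adjusted p-value in edgeR's test was 0.30, and 0.025 without that library. This was the 1 of 14 alternative fits in which ITGB5 passed. SCARF1, a scavenger receptor that binds complement C1q, had the largest change among those tested, at -1.16, on 21 to 48 counts in C4-2B and 4 to 24 counts in RC4-2B. Its groups overlapped. STAB2 and CD36 had too few counts to be tested. STAB2 had 9, 4 and 7 counts in C4-2B and 1, 0 and 1 counts in RC4-2B. CD36 went the other way, with 0, 0 and 1 counts in C4-2B and 7, 8 and 2 counts in RC4-2B. TIMD4, HAVCR1 and ITGB3 were at 0 in all libraries.

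Of the 10 partners of GULP1 and LRP1 and related adaptors, 7 were tested. None passed in edgeR's test, against 1.98% of all genes tested, and their log2 fold changes lay between -0.17 and 0.41. APP, the amyloid precursor protein, which GULP1 can bind, was the most abundant at 53.4 ± 5.93 FPKM in C4-2B and 57.9 ± 6.91 FPKM in RC4-2B. APPL1, an endosomal adaptor, had the largest change of the list, 0.41. Of the other genes of RAC1 activation, 10 of 11 were tested. None passed, against the same 1.98% of all genes, and the values lay between -0.38 and 0.40. RAC1 itself was at 94.1 ± 1.74 FPKM in C4-2B and 93.9 ± 16.9 FPKM in RC4-2B, with a log2 fold change of -0.032. DOCK5, a relative of DOCK1, was at 0.40.

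All 10 genes of phosphatidylserine exposure and its restraint were tested, and none passed in edgeR's test, against 1.98% of all genes tested. TMEM30A, a subunit of the flippases that return phosphatidylserine to the inner side of the membrane, was the most abundant of the list at 20.8 ± 1.69 FPKM in C4-2B and 23.7 ± 2.24 FPKM in RC4-2B. All 14 genes of the phagosome and of lipid efflux were tested and none passed, against the same 1.98% of all genes. RAB7A, a GTPase of late endosomes, led at 103 ± 3.69 FPKM in C4-2B and 100.5 ± 10.4 FPKM in RC4-2B. ABCA1, a lipid exporter induced after uptake of dying cells, had the largest change of that list, 1.31, on 2 to 14 counts in C4-2B and 12 to 30 counts in RC4-2B, which overlapped.

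**Figure D4:**
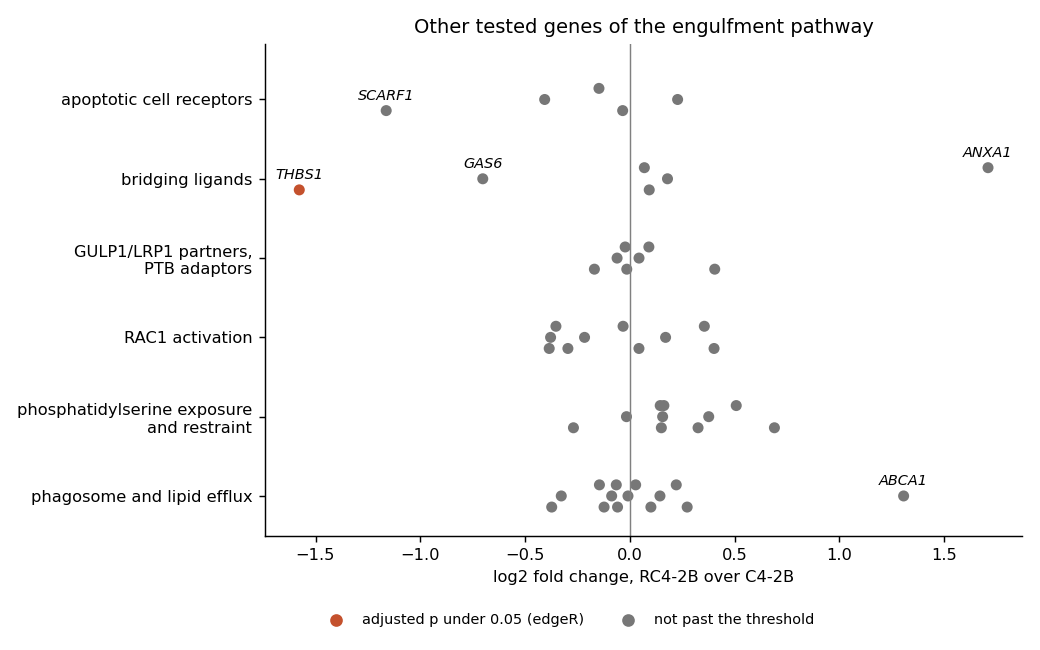
log2 fold change of RC4-2B over C4-2B (horizontal axis) for the 52 tested genes of the 6 lists (rows), with genes past an adjusted p-value of 0.05 in edgeR in red and the others in grey. THBS1, at -1.58, is the single red point, and most of the others lie between -0.5 and 0.5.

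To see whether the decrease of GULP1 was shared along the chromosome, the genes whose start lies within 1 Mb of its start were read. The table lists 17 such genes, of which 10 were at 0 in all libraries and 4 had enough counts to be tested. In edgeR's test 0 of the 4 passed, against 1.98% of all genes tested. At an unadjusted p-value under 0.05, 3 of the 4 were higher in RC4-2B and 0 lower, against 12% and 9.42% of all genes. DESeq2 called 1, COL3A1, where it called 5.93% of all genes. The log2 fold changes were 0.57 for TFPI, a coagulation inhibitor, 0.92 for CALCRL, a neuropeptide receptor, 0.99 for COL5A2 and 1.69 for COL3A1, both fibrillar collagen genes. TFPI went from 75.3 ± 5.40 to 112 ± 25.0 CPM (SD, n = 3), with 95.3, 140 and 99.0 CPM in RC4-2B replicates 1 to 3. The adjusted p-value of TFPI in edgeR's test was 0.12, and TFPI passed in 3 of 14 alternative fits. Without RC4-2B replicate 2 its log2 fold change was 0.37. COL3A1 had 7, 13 and 10 counts in C4-2B and 23, 34 and 38 counts in RC4-2B. Its adjusted p-value in edgeR's test was 0.051, and it passed in 6 of 12 alternative fits. COL5A2, which had 32, 28 and 35 counts in C4-2B and 66, 72 and 46 counts in RC4-2B, had an adjusted p-value of 0.093. CALCRL had 5 to 17 counts per library, its groups overlapped, and its adjusted p-value was 0.26. None of these 4 neighbours shared the direction of GULP1. The nearest of them, COL3A1, starts 683 kb from the start of GULP1, and genes within 0.5 Mb had too few counts to be tested. LINC01090, also in the 1 Mb window, was not tested either. Its mean was lower in the subclone (0.118 CPM against 0.346 CPM), without overlap, but its few reads cannot be told apart from GULP1 reads. Within 2 Mb, 16 genes were tested, 0 passed in edgeR's test, and the log2 fold changes lay between -0.52 and 1.69.

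**Figure D5:**
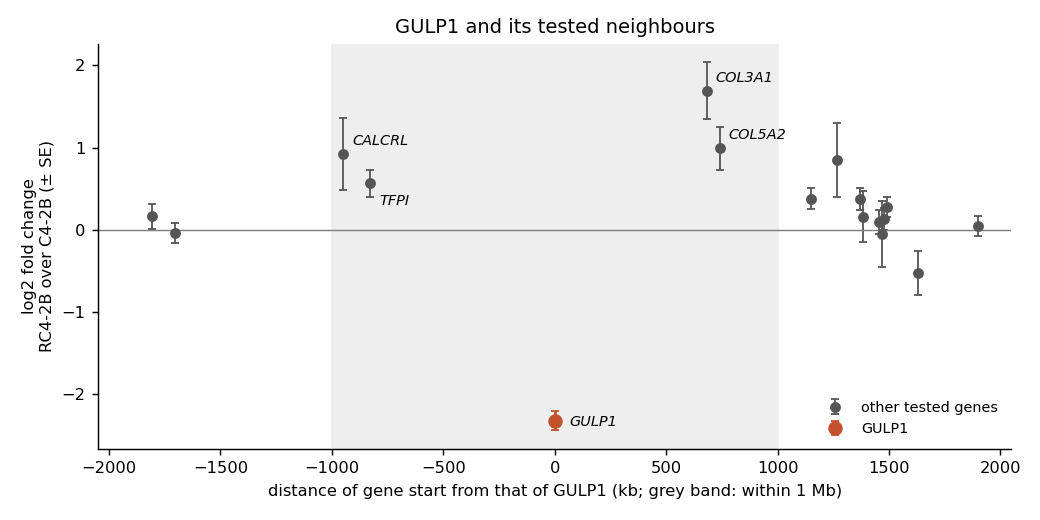
log2 fold change of RC4-2B over C4-2B with its standard error (vertical axis) against the distance of the gene start from that of GULP1 (horizontal axis, kb) for GULP1 (red) and the 16 tested genes within 2 Mb (grey), with the 1 Mb window shaded. GULP1 lies at -2.32, whereas the 4 tested genes in the window lie between 0.57 and 1.69.

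Likeness to GULP1 was measured as the root mean square difference of log2 CPM, each gene centred on its own mean over the 6 libraries, across 12574 genes whose average log2 CPM was 1 or more. The smallest differences were those of TOX3, at 0.17 on the log2 scale, PLXDC2, at 0.19, PTK6, at 0.21, DUSP4, at 0.26, and LONRF2, at 0.27. The level in C4-2B exceeded that in RC4-2B by 4.52-fold for TOX3, 4.83-fold for PLXDC2, 4.04-fold for PTK6, 5.45-fold for DUSP4 and 4.50-fold for LONRF2, against 4.99-fold for GULP1. These genes were picked for this pattern over the same 6 libraries, and none of them was in the pathway lists.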

How the data were processed

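Gene expression was measured by RNAseq in 3 libraries of C4-2B and 3 of RC4-2B. RNA was taken from cells grown for 72 h. The labels name fetal bovine serum, and the paper's methods name charcoal-stripped serum as well. Per the submitters' processing notes, reads were mapped with STAR to GRCh38. The authors deposited whole-number counts per gene, without normalization, and FPKM values, which equal these counts divided by gene length and by 1 total per library. The counter and annotation release are not given in the sources used here. Groups were taken from the sample titles, and libraries were matched to columns by the names in the labels.

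The counts entered edgeR 4.0.16 in R 4.3.3 (TMM scaling, filterByExpr with a minimum count of 10, glmQLFit and glmQLFTest, cell line as the only term, Benjamini-Hochberg adjustment over 15054 genes). The standard error of a log2 fold change is its size over the square root of F. The 95% intervals use the degrees of freedom of the test. On simulated data the fit recovered 199 of 200 genes changed 4-fold, with 7 false calls. The simulation used the same spread parameter for all genes and no deviating library. It therefore does not cover data with a library such as RC4-2B replicate 2. Depth and the floor of 3 counts are given in the report. Alternatives were DESeq2 1.42.0 (the tool of the paper's methods), upper-quartile or RLE scaling, genes with at least 1 count in all, a replicate block, the omission of each library, limma 3.58.1 (trend) on log2(FPKM + 0.1) and log2(FPKM + 1), and, added after seeing the data, a GC offset per library (lowess, span 0.2, longest GENCODE transcript, 99.6% of tested genes). Libraries of 1 cell line differed by more than sampling noise (3.37 to 65.0 chi-square per gene) and were all kept. The titles call the replicates biological, and nothing else says that they came from separate cultures, so p-values measure the spread between these libraries.

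The members and lists were chosen with earlier results of these data known. Named are all members, pathway genes past the threshold, the most abundant and most changed gene of each list, tested neighbours within 1 Mb and the 5 genes most like GULP1. TYRO3 and ELMO3 belong to the shares compared. Genes listed at 0, GAS6, STAB2, CD36, LINC01090, NT5DC2 and the marker genes named are outside this rule and were chosen after their values were seen. A few genes under this rule are not reported here.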

Additional observations from a re-analysis of the deposited data

How the results depend on the processing

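GULP1, which was chosen for its lower counts in these same libraries, was lower in RC4-2B in all 14 alternative fits. Its log2 fold change was -2.32 in edgeR on 6 libraries, -1.94 with limma on log2(FPKM + 1), where the pseudocount understates changes, -2.47 with the GC correction, and -2.39 to -2.25 with a library left out. The number of other members higher in RC4-2B was 0, and 1 (LRP1) with DESeq2 and with the GC correction, and 0 to 1 with a library left out. No other member was lower in any fit, 0 in each. Of the pathway lists, 0 genes were higher, against 1 with DESeq2 and 2 each without a filter and with the GC correction. The number lower was 1, and 2 in these last fits. With a library left out the numbers were 0 to 6 higher and 0 to 3 lower. The lowest, 0 lower, came without C4-2B replicate 1, and the highest, 6 higher and 3 lower, without RC4-2B replicate 2. Over all genes, the fit without RC4-2B replicate 2 called 6.5% higher and 6.02% lower. Without C4-2B replicate 1 the calls were 13 higher and 31 lower of 15519 genes. The fit without a filter called 604 higher and 646 lower of 29109 genes, and upper-quartile scaling 178 and 139 of 15054. The GC correction called 4.38% higher and 3.29% lower, and DESeq2 3.28% and 2.64%. Of the neighbours of GULP1, 0 were higher, against 1 each with DESeq2 and upper-quartile scaling, 3 each without a filter and with the GC correction, and 0 to 2 with a library left out. A window of 2 Mb gave 0, and a window of 0.5 Mb held no tested gene. The MERTK share was higher in RC4-2B by 5.50 percentage points, 3.88 to 7.27 with a library left out. The difference of the ELMO2 share was -0.575 to 7.50 points with a library left out. Small changes that turned sign were those of STAB1 (-0.34 to 0.091 with a library left out, 0.31 with the GC correction), ELMO2 (-0.18 to 0.056 with a library left out), RAC1 (-0.17 to 0.053 with a library left out) and TMEM30A (-0.027 with the GC correction). The cause of these changes was not tested. LRP1, STAB1 and other genes under 1 FPKM in most libraries were not fitted by limma.

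With the replicate number as a block, 0 members besides GULP1 were called, 1 pathway gene (THBS1) was lower and 0 neighbours passed, while the calls over all genes went from 162 higher and 136 lower to 55 and 74. The deviations of same-numbered libraries correlated at 0.18, 0.11 and -0.027, against -0.17 to 0.084 for libraries with different numbers. The labels do not pair the libraries, and these values do not settle whether they are paired. Depth limits what can be said of STAB1, ELMO1, MEGF10, MEGF11 and AXL.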
